A study of Mus musculus with 6 samples.

Results

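The genes followed here encode 9 proteins that build the outer segment of rods and cones, its stacked membrane discs and the matrix around it. They are Prph2, Rom1, Prom1, Cdhr1, Rp1, Rp1l1, Tulp1, Impg1 and Impg2. They were chosen by symbol from a table of 49997 genes, all 9 were found in it, and all 9 passed the filter on low values that left 20277 genes for testing. Polyadenylated RNA was sequenced from 6 mouse retinas, 1 retina per library. The 3 retinas labelled Samd7 KO carried the genotype label Samd7 knockout (-10A) and an age of postnatal day 31. The 3 wild-type retinas carried the label c57Bl6/j wt and an age of postnatal day 36. Replicates are called KO 1 to 3 and wild type 1 to 3, and ± gives the SD over the 3 libraries of a group. All 6 carried a male label and none had a treatment label. The labels give neither the strain behind the knockout allele nor whether retinas within a group were from different animals. The p-values therefore cover only the spread among these 6 libraries. Genotype cannot be told apart from age, nor from a difference in strain if there was one. Samd7 encodes a sterile alpha motif protein of photoreceptors that works with Polycomb silencing complexes.

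The outer segment is a modified cilium filled with flat discs that hold the visual pigment. New discs grow out at its base as folds of the ciliary membrane, their rims are bent and held by the tetraspanins Prph2 and Rom1, and microtubules of the axoneme run along the stack. The space outside is filled by the interphotoreceptor matrix, a gel of hyaluronan and proteoglycans. Inherited defects of each of these genes are known as causes of retinal disease in people.

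The promoters of the 4 genes that passed the test below are shown so that the sequence at a start site can be compared. Each window runs from 250 bases before to 50 bases after a transcript start in RefSeq on GRCm38.p6, written 5′ to 3′ on the strand of the gene. For Prph2, Rom1 and Tulp1 that start is the outer end of the gene as given below, and for Impg2 it lies inside the gene, downstream of that end. Capitals mark TAATC on either strand, a short core that photoreceptor homeodomain factors can bind.
Prph2, chr17:46910228-46910527, plus strand: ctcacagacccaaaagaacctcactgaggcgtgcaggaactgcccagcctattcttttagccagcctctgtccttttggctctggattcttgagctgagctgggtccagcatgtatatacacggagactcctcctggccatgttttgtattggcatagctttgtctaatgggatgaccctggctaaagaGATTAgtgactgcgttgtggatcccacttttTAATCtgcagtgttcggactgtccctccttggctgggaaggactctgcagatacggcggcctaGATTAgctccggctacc
Rom1, chr19:8929307-8929606, minus strand: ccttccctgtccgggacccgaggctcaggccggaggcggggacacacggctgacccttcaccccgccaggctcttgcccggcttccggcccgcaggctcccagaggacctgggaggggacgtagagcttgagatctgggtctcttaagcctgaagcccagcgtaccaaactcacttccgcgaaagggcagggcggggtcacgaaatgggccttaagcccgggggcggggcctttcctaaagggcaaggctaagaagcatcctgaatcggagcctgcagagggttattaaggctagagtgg
Tulp1, chr17:28365167-28365466, minus strand: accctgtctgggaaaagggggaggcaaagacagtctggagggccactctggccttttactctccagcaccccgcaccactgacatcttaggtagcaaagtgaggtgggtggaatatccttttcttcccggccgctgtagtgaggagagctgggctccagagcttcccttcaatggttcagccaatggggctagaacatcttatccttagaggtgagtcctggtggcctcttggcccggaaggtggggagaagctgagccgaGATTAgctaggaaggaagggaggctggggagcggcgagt
Impg2, chr16:56204063-56204362, plus strand: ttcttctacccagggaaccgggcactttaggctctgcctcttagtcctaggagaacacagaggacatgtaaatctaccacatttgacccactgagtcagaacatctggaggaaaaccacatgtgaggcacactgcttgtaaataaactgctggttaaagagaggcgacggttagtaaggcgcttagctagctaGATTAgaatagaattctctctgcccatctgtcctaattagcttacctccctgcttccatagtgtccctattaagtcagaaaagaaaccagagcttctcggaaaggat
Prph2 held 3 copies of TAATC, Tulp1 and Impg2 held 1 each, and Rom1 held 0. Among the genes that did not pass the test, Impg1 held 2, Prom1 held 1 in 1 of its 2 windows, and Cdhr1 held 0, so the letters did not mark the called genes. TAATC was picked after the sequences were read, and 22% of 32851 promoter windows of 300 bases held it. The longer motifs searched first were TAATCC, the core bound by CRX and OTX2, and TGCTGA, the short site bound by NRL and other Maf factors. Both were absent from all 8 windows found for 7 of the 9 genes, while 7.06% and 19.5% of all windows held them on either strand. TAATC lies inside TAATCC, so these letters are not counted independently. Prph2 and Tulp1 lie on the same chromosome, as do Cdhr1 and Rp1l1.

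The libraries held 44.2 to 53.1 M reads in the retinas labelled Samd7 KO and 47.7 to 62.8 M in wild type. Samd7 itself had 57837, 45755 and 44932 normalized reads in the libraries labelled Samd7 KO 1, 2 and 3, against 6348, 8141 and 8122 in wild type 1, 2 and 3. It was higher under the KO label, by 2.72 on the log2 scale with a limma adjusted p of 1.54e-08. The count over the whole gene does not check the altered allele, and directions below hold for the libraries as labelled. Of 16 rod markers 0 were higher and 10 lower, with a summed level of 2270345 to 2430562 normalized reads in the libraries labelled Samd7 KO against 3233004 to 3439953 in wild type. Of 15 cone markers 8 were higher, 1 lower and 6 not called. They summed to 822937 to 856902 normalized reads in the libraries labelled Samd7 KO against 223398 to 227581 in wild type. Opn1sw alone had 416374 ± 17337 in KO and 43705 ± 1291 in wild type. The gene called lower was Opn1mw, and Arr3, Gnat2 and Pde6h were among those not called. The sum therefore does not show a rise of cone genes in general. Of 12 microglia markers 10 were higher, of 16 pigment epithelium markers 9 were lower, and of 6 red blood cell markers 5 were higher. Müller glia markers had 5 of 13 higher and 2 lower, bipolar cell markers 0 of 12 higher and 1 lower, and amacrine and ganglion cell markers 1 of 15 higher and 0 lower. By the same test, described below, 6.79% of all tested genes were called higher and 5.21% lower. No marker in these lists was at 0 in every library. The 14 lens markers summed to 8346 normalized reads in wild type 3 and to 199 to 278 in the other libraries. KO 2 and wild type 2 stood apart in another way. Among genes with a longest transcript of 4 to 8 kb, the median deviation from the mean of the 6 libraries was 0.13 on the log2 scale in KO 2 and -0.09 in wild type 2. Among genes up to 1 kb it was -0.11 in KO 2 and 0.17 in wild type 2. Changes without KO 2 or wild type 2 are given beside the genes whose values they move most.

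Of the 9 genes, Prph2, Rom1 and Tulp1 fell and Impg2 rose in the retinas labelled Samd7 KO, while Prom1, Cdhr1, Rp1, Rp1l1 and Impg1 did not pass the test. That is 3 of 9 lower and 1 of 9 higher, where 5.21% of all tested genes were called lower, 6.79% higher and 12% in either direction. Those 4 genes also had groups that did not overlap, an order seen in 31.1% of all tested genes. The median log2 fold change of the 9 genes was -0.16, against 0.00 over all tested genes, and the range ran from -0.62 to 0.61. The test was limma on log2(normalized reads + 1) across 20277 genes, and a call needed a Benjamini-Hochberg adjusted p under 0.05. In all, 56.6% of the 2432 called genes were higher. The share depended on the scaling: it was 71.2% of 2810 with scaling to total reads and 48.9% of 2583 with edgeR and upper quartile scaling. In the authors' deposited table the same 4 genes had an adjusted p under 0.05 against no change. None of the 9 passed the authors' other test, against a log2 fold change of 1. Both tests used the same 6 libraries and are not separate evidence. The 9 genes together took 1.45% to 1.5% of all reads in the libraries labelled Samd7 KO and 1.86% to 1.94% in wild type. These 2 ranges did not overlap, and most of the reads were of Prph2 and Rom1, with shares given below. Rod markers had a lower sum and cone markers, with Opn1sw the largest part, a higher sum in the libraries labelled Samd7 KO, as given above. The part of either cell type in the changes was not tested. In retinas taken whole, fewer cells of a type and less RNA per cell cannot be told apart.

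**Figure D1:**
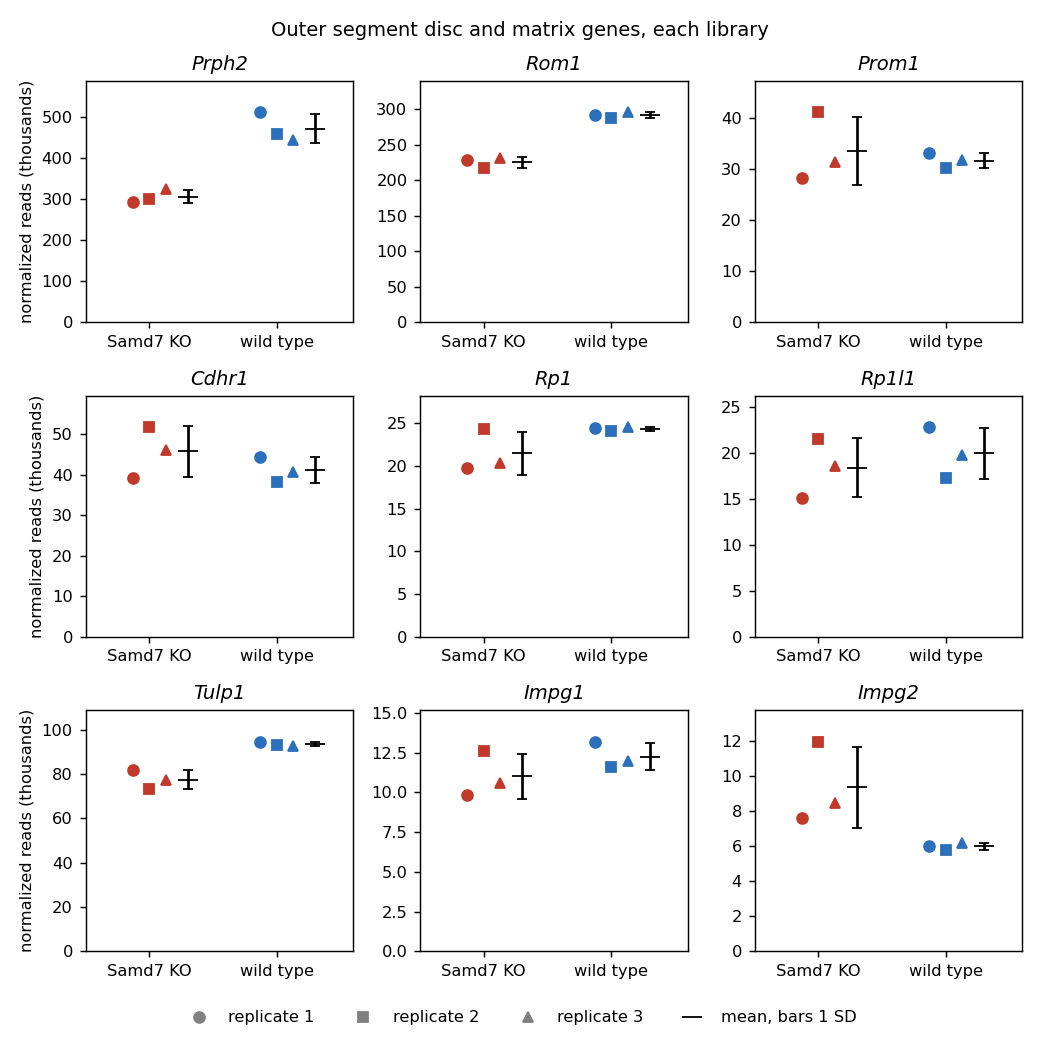
Normalized reads (in units of 1000) of each gene in each library, Samd7 KO on the left and wild type on the right, with a symbol per replicate number and the mean ± 1 SD beside the points. The KO points of Prph2, Rom1 and Tulp1 all lie below wild type, those of Impg2 all lie above it, and KO 2 is the highest KO library in the other 5 panels.

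The transcripts of both disc rim proteins were lower. Prph2, peripherin-2, is the tetraspanin that bends the disc rim and without which mouse rods build no outer segment (chromosome 17, 46910478 to 46924933, GRCm38.p6). It had 292683, 300267 and 323732 normalized reads in the libraries labelled Samd7 KO 1, 2 and 3, against 510544, 459033 and 444486 in wild type 1, 2 and 3. Every library labelled KO lay below every wild-type library, with a mean of 305561 ± 16187 in KO and 471354 ± 34710 in wild type. This is a 1.54-fold lower level (log2 fold change -0.62, SE 0.06, 95% interval -0.77 to -0.48, limma adjusted p = 4.70e-05). Rom1 is the tetraspanin that joins Prph2 in the rim complexes (chromosome 19, 8927382 to 8929356). It had 227845, 216951 and 231488 normalized reads in KO 1, 2 and 3, against 291295, 287104 and 295495 in wild type 1, 2 and 3. The groups were far apart relative to their spread, with means of 225428 ± 7564 in KO and 291298 ± 4196 in wild type. Rom1 was 1.29-fold lower (log2 fold change -0.37, SE 0.05, 95% interval -0.48 to -0.26, limma adjusted p = 5.11e-04). Prph2 took 39.8% to 42.1% of the reads of the 9 genes in the libraries labelled Samd7 KO and 45.9% to 49.1% in wild type, ranges that did not overlap. The share of Rom1 was 28.8% to 31.6% in the libraries labelled Samd7 KO and 28% to 30.5% in wild type, so its ranges overlapped.

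The ratio of the rim partners was higher in every library labelled Samd7 KO than in any wild-type library. Within a library, the ratio does not depend on the size factor that scales it. Rom1 over Prph2 was 0.779, 0.723 and 0.715 in KO 1, 2 and 3, and 0.571, 0.626 and 0.665 in wild type 1, 2 and 3. The difference was 0.25 on the log2 scale (exact two-sided permutation p = 0.1, the smallest that 3 against 3 libraries allow, and 0.127 adjusted over 14 ratios). No ratio given here can pass 0.05 by this test. Prph2 fell by more than Rom1, so a gene that did not change would also have a higher ratio to Prph2. The share of all tested genes with such an order was not computed, and the order is not read as particular to Rom1. The ratio of Prph2 to Gnat1, the rod transducin alpha subunit, was nearly constant within each group. It was 0.380, 0.384 and 0.388 in KO 1, 2 and 3 and 0.331, 0.328 and 0.326 in wild type 1, 2 and 3.

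**Figure D2:**
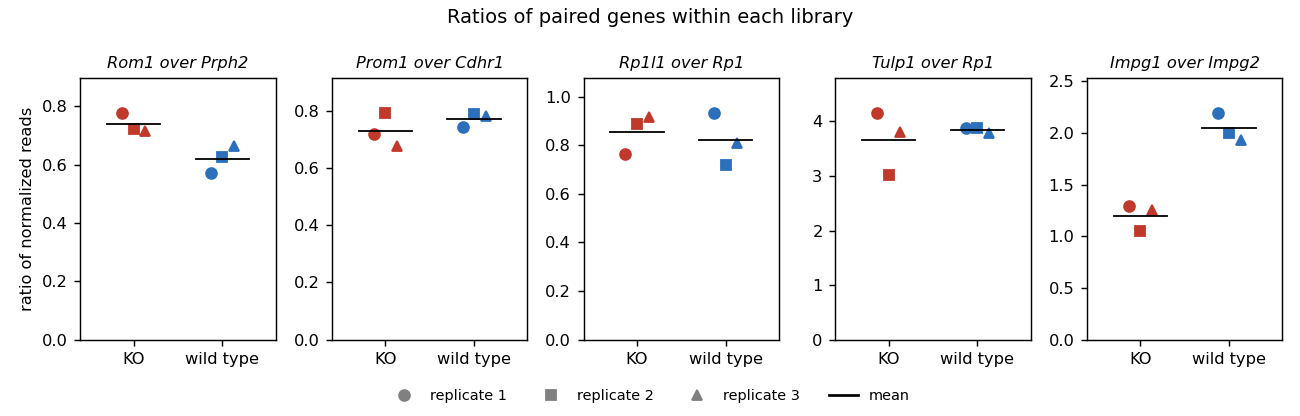
Ratio of normalized reads of paired genes within each library, Samd7 KO on the left and wild type on the right of each panel, with a symbol per replicate number and a line at the mean. The ratios of Rom1 to Prph2 lie higher and those of Impg1 to Impg2 lie lower in all 3 KO libraries than in any wild-type library, and the other 3 ratios overlap.

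The 2 proteins at the site of disc growth did not pass the test. Prom1, prominin-1, sits in the membrane folds of newly growing discs (chromosome 5, 43993621 to 44102047). It had 28106, 41015 and 31298 normalized reads in KO 1, 2 and 3, against 33023, 30128 and 31696 in wild type 1, 2 and 3. KO 2 was above and KO 1 below all wild-type libraries, so the groups overlapped. The log2 fold change was 0.06 (95% interval -0.18 to 0.31, limma adjusted p = 0.760), -0.09 without KO 2 and 0.03 without wild type 2. Cdhr1, a cadherin that ties the edge of new discs to the inner segment (chromosome 14, 37077849 to 37098347), had 39225, 51715 and 46163 normalized reads in KO 1, 2 and 3. In wild type 1, 2 and 3 it had 44430, 38257 and 40631. KO 2 and KO 3 lay above the wild-type range and KO 1 inside it. Its log2 fold change was 0.15 (95% interval -0.06 to 0.35, limma adjusted p = 0.350), or 0.25 with a limma adjusted p of 0.0490 without KO 1 and 0.05 without KO 2. Over its 19 alternatives the adjusted p ranged from 0.0490 to 0.767. Prom1 over Cdhr1 was 0.717, 0.793 and 0.678 in KO 1, 2 and 3 and 0.743, 0.788 and 0.780 in wild type 1, 2 and 3, with overlap (exact two-sided permutation p = 0.4).

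The axoneme proteins did not pass the test either. Rp1 is a doublecortin-domain protein that binds the axoneme microtubules and keeps the discs aligned (chromosome 1, 4115673 to 4409266). It had 19701, 24292 and 20374 normalized reads in KO 1, 2 and 3, against 24421, 24046 and 24529 in wild type 1, 2 and 3. KO 1 and KO 3 lay below all wild-type libraries, and KO 2 lay within their narrow range. The log2 fold change was -0.19 (SE 0.08, 95% interval -0.36 to -0.02, limma adjusted p = 0.15). Without KO 2 it was -0.28 (limma adjusted p = 0.00899), and with the trend of each library with transcript length removed it was -0.30 (limma adjusted p = 0.00412). Over its 19 alternatives the adjusted p ranged from 0.00412 to 0.365. Rp1l1, a relative of Rp1 on the same microtubules (chromosome 14, 63992431 to 64033506), had 15056, 21528 and 18623 normalized reads in KO 1, 2 and 3. It had 22817, 17271 and 19799 in wild type 1, 2 and 3, so the groups overlapped widely. Its log2 fold change was -0.12 (95% interval -0.39 to 0.15, limma adjusted p = 0.576). It was 0.01 without KO 1 and -0.24 without KO 2. Leaving out wild type 1 gave -0.02, and leaving out wild type 2 gave -0.22. Its limma adjusted p over 19 alternatives ranged from 0.106 to 0.951. Rp1l1 over Rp1 was 0.764, 0.886 and 0.914 in KO 1, 2 and 3 and 0.934, 0.718 and 0.807 in wild type 1, 2 and 3 (exact two-sided permutation p = 0.7). The pseudogene Gm6101 lies inside Rp1 and Gm18292 inside Impg1, with at most 5.87 normalized reads on average in a group.

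Tulp1, a tubby-like protein that helps carry visual pigment from the inner to the outer segment, was lower (chromosome 17, 28351515 to 28365216). It had 81954, 73292 and 77512 normalized reads in KO 1, 2 and 3, against 94700, 93388 and 92708 in wild type 1, 2 and 3. All 3 KO libraries lay below the wild-type libraries, which were close together. Tulp1 was 1.21-fold lower, at 77586 ± 4331 in KO against 93599 ± 1013 in wild type. On the log2 scale it changed by -0.27 (SE 0.06, limma adjusted p = 0.00937). Its call was lost without a filter on low values (adjusted p = 0.0553) and without wild type 3 (adjusted p = 0.0541), while the log2 fold change stayed at -0.27 and -0.28 and the adjusted p over all 19 alternatives ranged from 3.29e-04 to 0.0553. Tulp1 over Rp1 was 4.16, 3.02 and 3.80 in KO 1, 2 and 3 and 3.88, 3.88 and 3.78 in wild type 1, 2 and 3, with overlap (exact two-sided permutation p = 0.8).

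Of the matrix proteoglycans, Impg2 was higher and Impg1 did not pass the test. Impg2, a membrane-anchored proteoglycan that binds hyaluronan around the segments, lies on the plus strand (chromosome 16, 56203839 to 56273753). It had 7602, 11948 and 8480 normalized reads in KO 1, 2 and 3, against 6011, 5787 and 6188 in wild type 1, 2 and 3. Every KO library lay above every wild-type library, with KO 2 far above the other KO libraries. The means were 9343 ± 2298 in KO and 5995 ± 201 in wild type. Impg2 was thus 1.56-fold higher (0.61 on the log2 scale, SE 0.13, 95% interval 0.32 to 0.90, limma adjusted p = 0.0102). The log2 fold change was 0.42 without KO 2 (limma adjusted p = 0.00352) and 0.50 with the length trend removed (limma adjusted p = 0.00437), and the adjusted p over all 19 alternatives ranged from 7.12e-05 to 0.0458. Impg1, its secreted relative (chromosome 9, 80312773 to 80465654), had 9846, 12608 and 10600 normalized reads in KO 1, 2 and 3. It had 13198, 11580 and 11962 in wild type 1, 2 and 3, and KO 2 lay inside the wild-type range. Its log2 fold change was -0.16 (95% interval -0.36 to 0.04, limma adjusted p = 0.304), and -0.26 without KO 2 (limma adjusted p = 0.0485, range over 19 alternatives 0.0485 to 0.593). Impg1 over Impg2 was 1.29, 1.05 and 1.25 in KO 1, 2 and 3 and 2.20, 2.0 and 1.93 in wild type 1, 2 and 3. These groups did not overlap, and the difference was -0.77 on the log2 scale (exact two-sided permutation p = 0.1, 0.127 adjusted over 14 ratios). Since Impg2 rose, a gene that did not change would also have a lower ratio to it. How many tested genes had such an order was not computed, and the order is not read as particular to Impg1.

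**Figure D3:**
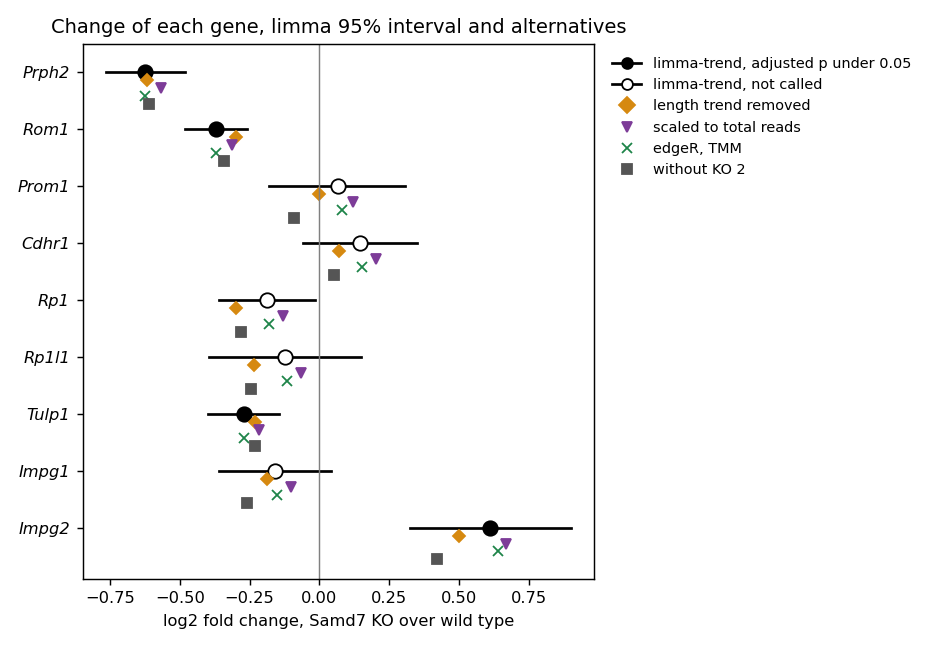
Log2 fold change (Samd7 KO over wild type) of each gene, with the limma 95% interval as a line, filled circles for called genes and other symbols for 4 alternatives, of which edgeR fits its own log2 scale. Prph2, Rom1 and Tulp1 lie left of 0 and Impg2 right of 0 under all 4 alternatives shown, while Prom1 lies on both sides.

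The order of the levels was the same in both groups when reads were divided by transcript length. In RPKM (reads per kilobase of the longest GENCODE transcript, scaled to library depth), Rom1 led at 2944 ± 94.8 in the libraries labelled Samd7 KO, against 3657 ± 80.9 in wild type. It was followed by Prph2 at 2271 ± 94.9 RPKM in KO and 3366 ± 186 in wild type, and by Tulp1 at 706 ± 44.0 RPKM in KO and 818 ± 10.7 in wild type. Cdhr1 came next at 209 ± 27.6 RPKM in KO and 181 ± 9.95 in wild type, then Prom1 at 162 ± 32.4 RPKM in KO and 147 ± 4.01 in wild type. Impg1, Rp1 and Rp1l1 lay between 54.5 and 65.0 RPKM in KO and between 56.8 and 69.4 RPKM in wild type. Impg2 was the lowest, at 26.9 ± 6.59 RPKM in KO and 16.6 ± 0.561 in wild type. Library ranges of neighbours in this order overlapped in KO for Cdhr1 and Prom1, for Impg1 and Rp1, and for Rp1 and Rp1l1, and in wild type for Impg1 and Rp1.

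Set against Gnat1, which was 1.80-fold lower than in wild type, every one of the 9 genes had a higher ratio in all 3 libraries labelled Samd7 KO than in any wild-type library. The same held for 84.0% of the other tested genes, so this count is near the background and is no result about the 9 genes. The ratio was 1.17-fold higher for Prph2, 1.39-fold for Rom1, 1.49-fold for Tulp1, 1.58-fold for Rp1, 1.61-fold for Impg1, 1.65-fold for Rp1l1, 1.88-fold for Prom1, 1.99-fold for Cdhr1 and 2.76-fold for Impg2. Each had an exact two-sided permutation p of 0.1 and 0.127 adjusted over 14 ratios. The 9 ratios share 1 denominator and are therefore not separate results.

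Among the libraries labelled Samd7 KO the deviations of KO 1 and KO 2 differed by transcript length. The 3 genes with a longest transcript under 3 kb were Rom1 (1517 bases), Tulp1 (2179) and Prph2 (2665). The others were Impg1 (3356), Prom1 (4089), Cdhr1 (4332), Rp1l1 (6684), Rp1 (6869) and Impg2 (6890), a division made after the values were seen. The 3 shorter genes were those called lower, and the longest, Impg2, was the 1 called higher. Over tested genes of known length, deviations from the mean of the 6 libraries sloped differently between libraries. Per 10-fold length the slope was -0.084, 0.264 and 0.129 on the log2 scale in KO 1, 2 and 3. In wild type 1, 2 and 3 it was 0.038, -0.263 and -0.084. The part of length in the calls was not tested beyond the alternative below. KO 2 was the highest KO library for all 6 of the longer genes, by 0.19 to 0.38 on the log2 scale above the mean of the group, and for 0 of the 3 shorter ones. KO 1 was the lowest KO library for all 6 longer genes, by -0.27 to -0.12. Wild type 2 was the lowest wild-type library for all 6, by -0.20 to -0.02, and for 1 of the 3 shorter ones. Its deviations were below 0 for all 9 genes. Removing the length trend of each library, an alternative chosen after seeing the data, gave log2 fold changes of -0.62 for Prph2, -0.30 for Rom1, -0.23 for Tulp1 and 0.50 for Impg2. With it 4 of the 9 genes were lower, Rp1 among them, and 1 was higher, where 13.3% of all tested genes were called, 6.25% lower and 7.08% higher. RNA quality was not given in the labels, and its part in this spread was not tested.

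**Figure D4:**
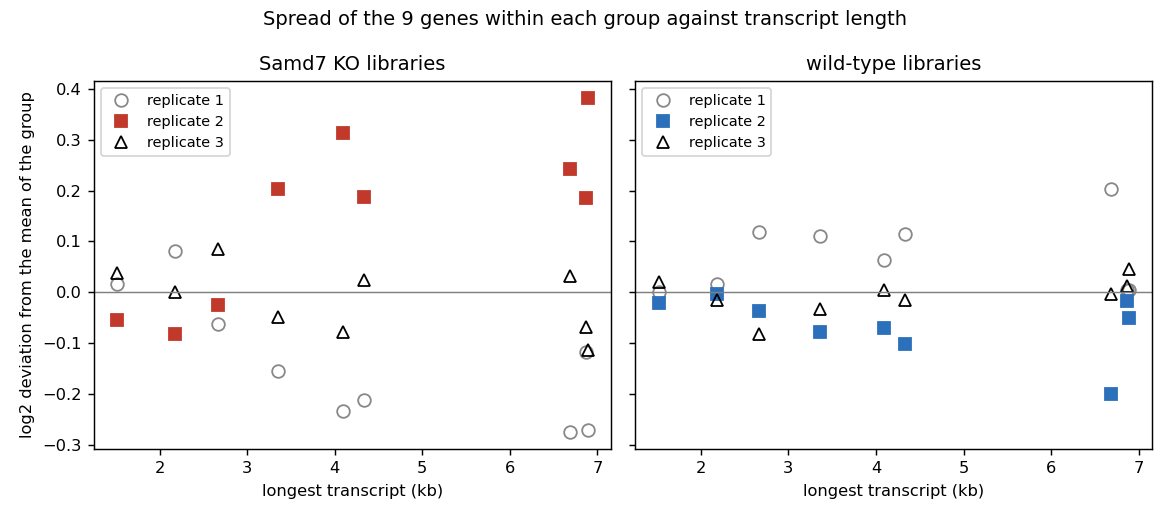
Log2 deviation of each of the 9 genes from the mean of its group (vertical) against the length of its longest transcript in kb (horizontal), Samd7 KO libraries on the left and wild-type libraries on the right, with a symbol per replicate. The squares of KO 2 lie above 0 for the 6 longer genes and below 0 for the 3 shorter ones, and the squares of wild type 2 lie below 0.

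Of 19 other genes listed for the disc and outer segment, 10 were lower and 1 higher, with a median log2 fold change of -0.20. The list is broad, and its counts are not counts of disc membrane proteins alone. Among the genes called lower were Tspan7 (log2 fold change -0.20) and Tspan10. Tspan10 had only 268 ± 108 normalized reads in KO and 495 ± 60.0 in wild type. The shares over all tested genes were 5.21% lower and 6.79% higher. Fscn2, an actin-bundling protein of photoreceptors, was 2.38-fold lower at 12495 ± 853 normalized reads in KO and 29682 ± 706 in wild type (limma adjusted p = 1.33e-07). Guca1b, an activator of guanylate cyclase, was 2.05-fold lower (limma adjusted p = 2.48e-07). Cngb1, the rod channel subunit whose glutamic-acid-rich part binds Prph2 at the disc rim, was 1.99-fold lower at 37914 ± 1834 normalized reads in KO and 75358 ± 2815 in wild type (limma adjusted p = 4.55e-07). Prcd, a small disc protein, was 1.57-fold lower (limma adjusted p = 3.65e-05). Pcare, which drives actin growth at the site of new discs, was the member that rose (log2 fold change 0.35, limma adjusted p = 0.00616) and was chosen for mention by that value. Without KO 1 or wild type 1, 2 members were higher. All genes called in either direction then numbered 3247 without KO 1 and 2171 without wild type 1, against 2432 in the main test. Cnga1, Cngb1 and Slc24a1 are also in the rod marker list.

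Of 19 partners at the axoneme and connecting cilium, 2 were higher, 1 was lower and 16 were not called, with a median log2 fold change of 0.03. These counts are near the shares over all tested genes, 6.79% called higher and 5.21% lower. Arl6, a small GTPase that recruits the BBSome, rose 2.12-fold at 13631 ± 799 normalized reads in KO and 6432 ± 513 in wild type (limma adjusted p = 2.05e-06). Rpgrip1, a scaffold of the connecting cilium, rose 1.49-fold (limma adjusted p = 2.43e-04). Poc1b, a centriole protein, was 1.25-fold lower (limma adjusted p = 0.0377) and lost its call in 8 of 19 alternatives. Without KO 1 the list had 4 higher and 0 lower, and without KO 3 or any 1 wild-type library 0 were lower. With DESeq2 or quality weights 4 were also higher, and with scaling to total reads 4 were higher and 0 lower. The genes called across the table, 2432 in the main test, changed as well. They were 3247 without KO 1, 1497 without KO 3, and 2171, 1470 and 1313 without wild type 1, 2 and 3. With DESeq2, quality weights and scaling to total reads they were 2883, 4650 and 2810. Ttll5, which adds glutamate to ciliary proteins, had a log2 fold change of 0.31 (limma adjusted p = 0.0540) and was called in 7 of 19 alternatives.

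Genes of transport into the outer segment had 1 of 21 higher and 2 lower, with a median log2 fold change of -0.06. Over all tested genes 6.79% were called higher and 5.21% lower, so these counts are near the background. Unc119, which carries rod transducin to the outer segment, was 1.29-fold lower at 180438 ± 6030 normalized reads in KO and 232642 ± 4015 in wild type (limma adjusted p = 5.85e-04). Arl3, the GTPase that releases such cargo, was 1.22-fold lower (limma adjusted p = 0.0110). Leaving out wild type 2 (adjusted p = 0.0680) or wild type 3 (adjusted p = 0.0511) ended the Arl3 call and left 1 lower gene, and without KO 1 the list had 2 higher. Tulp3, a tubby-like relative of Tulp1, rose 1.65-fold, at 609 ± 69.7 normalized reads in KO and 370 ± 23.8 in wild type (limma adjusted p = 0.00222). The motor subunit Kif3b had a log2 fold change of -0.26 (limma adjusted p = 0.0987).

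Other matrix and adhesion genes had 4 of 25 tested higher and 2 lower, with a median log2 fold change of 0.06. Beside this, 6.79% of all tested genes were called higher and 5.21% lower. Sparc, a matricellular protein, rose 1.57-fold at 37859 ± 2366 normalized reads in KO and 24044 ± 1655 in wild type (limma adjusted p = 7.28e-05). Cd44, a receptor for hyaluronan, rose 1.86-fold at 441 ± 7.06 normalized reads in KO and 238 ± 9.72 in wild type (limma adjusted p = 3.17e-04), and Lrp2, a large endocytic receptor, rose 2.07-fold (limma adjusted p = 0.00171). Vtn, vitronectin, was 1.37-fold lower (limma adjusted p = 3.27e-04). Rbp3, the abundant retinoid carrier of this matrix, chosen after the values were read, differed by 0.02 on the log2 scale (limma adjusted p = 0.940). Without KO 1 the list had 7 genes higher. In that setting 3247 of all tested genes were called, 57.3% of them higher, against 2432 and 56.6% in the main test.

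Among relatives of the 9 genes by sequence, 5 of 37 tested were higher and 2 lower, with a median log2 fold change of 0.03. Across all tested genes the shares were 6.79% higher and 5.21% lower. Cd37, a tetraspanin of leukocytes, rose 11.1-fold at 1781 ± 474 normalized reads in KO and 161 ± 65.9 in wild type (limma adjusted p = 5.70e-06). Cd9 rose 1.39-fold and Tspan9 1.28-fold (limma adjusted p = 0.00101 and 0.00774), while Tspan4 was 1.34-fold lower (limma adjusted p = 0.00486). Without KO 3 the list had 2 genes higher and 1 lower, and the Tspan9 call ended (adjusted p = 0.0513). Without wild type 2 or wild type 3 it had 3 higher and 1 lower, and without wild type 1 it had 4 higher and 1 lower. Microglia markers were 7280 to 8044 normalized reads in sum in the libraries labelled Samd7 KO and 4923 to 5441 in wild type, and their part in the Cd37 result was not tested.

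**Figure D5:**
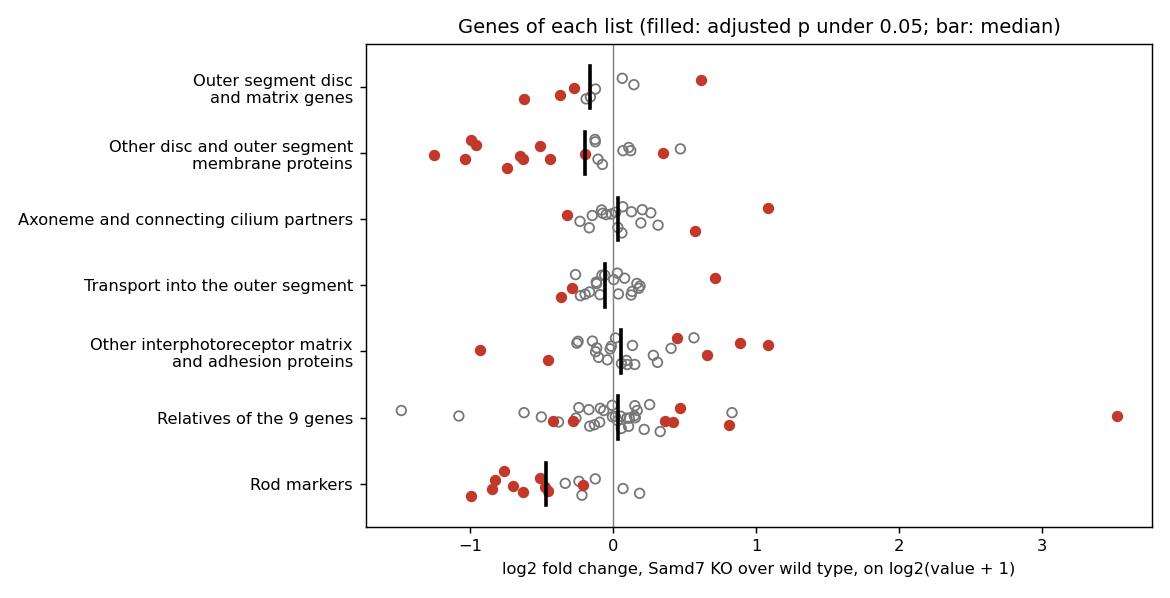
Log2 fold change (Samd7 KO over wild type, horizontal) of each tested gene, 1 row per list, filled where the limma adjusted p was under 0.05 and with a bar at the median of the list. The medians of the 9 genes (-0.16), of other genes listed for the disc and outer segment (-0.20) and of rod markers (-0.47) lie left of 0. The Cd37 point lies farthest right at 3.52.

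The genes with a pattern across the 6 libraries most like Prph2 were Igf2bp2, Kifc3 and Spg7 (Pearson r of log2 values 0.998, 0.997 and 0.996). Azin2 and Gsg1 were among those most like Rom1 (r 0.999 and 0.997). These are descriptions over 6 libraries in 2 groups. They were picked from the 3 highest for each among the 20277 tested genes, after predicted models (Gm, Rik and LOC names) were left out.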

How the data were processed

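The deposited signal per gene and library is a read count that the authors scaled, per the file headers; dividing by the worth of 1 read returned whole reads for all 166478 values within 0.01 (100%). The authors' DESeq2 table also holds log2 fold changes, Wald scores and p-values, per the file headers. The submitters' processing notes name DRAGEN, SAMtools 1.9, HTSeq 0.12.4, STAR 2.7.3a, cutadapt 3.0 and DESeq2, and the builds mm10 and GRCm38, without their roles. No strand setting is stated in them.

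The filter kept genes reaching 10 in 3 or more libraries. They were tested with limma-trend (limma 3.58.1, R 4.3.3) on log2(value + 1), which understates changes of low genes, with calls at an adjusted p under 0.05. Recovered reads were tested with DESeq2 1.42.0 and edgeR 4.0.16 as alternatives, and edgeR called 2494 genes. Transcript lengths came from GENCODE vM21 (89.8% of tested genes), positions and promoters from RefSeq GRCm38.p6. The 9 genes and all lists were chosen with earlier results of these data known. Named besides the 9 were the 4 genes of each pathway list with the smallest adjusted p. Within groups, library pairs had a chi-square per degree of freedom of 6.91 to 34.6, so no pair agreed within counting noise. This does not show that they came from separate animals. Protein identity was not analysed here. Of the genes with a pattern most like Rom1, 1 is not reported here.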

Additional observations from a re-analysis of the deposited data

How the results depend on the processing

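Prph2 and Rom1 kept their direction and call under all 19 alternatives, with log2 fold changes of -0.67 to -0.55 and -0.40 to -0.30. The count of called genes, 2432, was 4650 with limma-voom and sample quality weights, 1189 with the threshold set to 0.01, a change made by the threshold alone, and 1313 to 3247 with 1 library left out (1497 without KO 3, 1470 without wild type 2, 1313 without wild type 3). Of the 9 genes, 0 were higher at an adjusted p under 0.01, since Impg2 (0.61, adjusted p = 0.0102) was then not called. With 1 library left out, 1 to 2 were higher and 2 to 5 lower, where 1313 to 3247 of the 20277 tested genes were called. Of those called genes 56.3% to 61.2% were higher. The 5 lower were found without KO 2, where 2075 genes were called and 56.3% of them were higher. Cdhr1 ran from 0.053 to 0.25, Rp1 from -0.28 to -0.13, Rp1l1 from -0.24 to 0.01, Prom1 from -0.09 to 0.18, Tulp1 from -0.31 to -0.23 and Impg1 from -0.26 to -0.081 in log2 fold change. Rp1 was called with limma-voom (-0.24, adjusted p = 0.00613) and with the length trend removed, chosen after seeing the data (-0.30, adjusted p = 0.00412). Tulp1 was not called without a filter (-0.27, adjusted p = 0.0553). Except as said, the cause was not tested. With the replicate number as a block, 1624 genes were called and Prph2 kept a log2 fold change of -0.62 (adjusted p = 4.77e-04); 3 of the 9 genes stayed lower and 1 higher. Same-numbered libraries deviated in opposite senses (r -0.31, -0.24 and -0.16 over 14045 genes), so the numbers were not taken to pair them. The ratio alternatives moved no ratio by more than its SD, though Rp1l1 over Rp1 changed sign without wild type 2 and Tulp1 over Rp1 without KO 2.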
